A study of Mus musculus with 15 samples.

Results

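Reactive oxygen species formed by mitochondria and oxidases in working muscle are removed by a set of enzymes that pass electrons from NADPH through glutathione or thioredoxin to peroxides. Superoxide dismutases convert superoxide to hydrogen peroxide, which catalase, glutathione peroxidases and peroxiredoxins then reduce, while glutathione transferases couple glutathione to reactive compounds and lipid oxidation products. Many of these genes are known targets of the transcription factor NRF2 through antioxidant response elements, and metallothioneins, small cysteine-rich proteins that bind zinc and copper, are induced by metals through metal response elements bound by MTF1.

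The genes described here were a fixed list of 40 antioxidant, glutathione and metallothionein genes, taken by gene symbol among 16593 named genes on the array. Expression was measured in gastrocnemius, a calf muscle of mostly fast fibres, of male C57BL/6 mice kept on house chow, with 1 Illumina MouseRef-8 bead array for each animal. There were 5 young mice (5 months), 5 middle-aged mice (17 months) and 5 old ones (28 months). Ages were compared between animals, and the labels name no engineered allele or treatment in any group. Values are log2 intensities after background correction and quantile normalisation, and a value after ± is the standard error of a log2 difference.

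A gene was called where limma, fitted to all 15 arrays, gave an adjusted p under 0.05 after Benjamini-Hochberg correction over all 9470 features tested. Of the 40 genes, 37 had a probe carrying their symbol, with 57 probes in all, and 36 passed the detection filter (5 or more of the 15 arrays with a detection p below 0.05). Prdx5, Prdx6 and Gsr were not analysed here. Hmox1, heme oxygenase, was detected on 0 of 15 arrays, with raw intensities from 56.6 to 87.1 and a lowest detection p of 0.202, so only a level near background can be given for it. Gclc was detected on 2 young, 1 middle-aged and 3 old arrays and Mt2 on 3 young, 0 middle-aged and 3 old arrays, so both lay close to background throughout.

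Between 11534 and 12593 probes were detected per array, and arrays of the same age correlated between 0.948 and 0.994. Of the fast fibre markers with a probe, 11 of 11 were detected on all arrays. The 12 measured macrophage markers had a median log2 difference of 0.78 between old and young, and 5 of them were called higher in old muscle. Of the 9 listed neutrophil markers 2 passed the detection filter. S100a8 was called higher and Elane differed by 0.03, while Camp, Ltf and Mmp8 were detected on 0 arrays. Of the other marker lists, 2 of 11 fibroblast markers (Col1a1 and Col1a2) were called lower. Of the 10 slow fibre markers, 9 had a higher estimate in old muscle (median 0.64) and 0 were called by limma, with 1 at an unadjusted p under 0.05. Their mean deviation lay between 0.40 and 1.05 on 4 old arrays, above the young range of -0.74 to 0.18, and was -1.95 on old replicate 5. The part of these markers in the results below was not tested. In bulk muscle, a change in the number of cells of a type and a change in RNA per cell cannot be told apart.

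Old replicate 3 stood apart for these genes. It gave the lowest value of all 15 arrays for 21 of the 36 genes (58.3%), against 26.9% of all features, and the lowest of the old arrays for 27. The mean deviation of the 36 genes from their own means was -0.40 on this array and lay between -0.07 and 0.21 on the other 14. The same array gave the highest value for 0 of the 36 genes but for 20.6% of all features, so for the whole array it was extreme in both directions and for these genes in 1. It was also lowest for the mean of fibroblast (-0.66), endothelial (-0.27) and Schwann cell markers (-0.28), but not of fast fibre markers (0.19). Its macrophage mean (-0.15) lay in the young range (-0.52 to -0.14), below the other old arrays (0.44 to 0.90). The part of these markers in the low values was not tested. Estimates from young to old that moved by over 1.5 times without old replicate 3 are given both ways, or as ranges, for the genes named below.

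**Figure D1:**
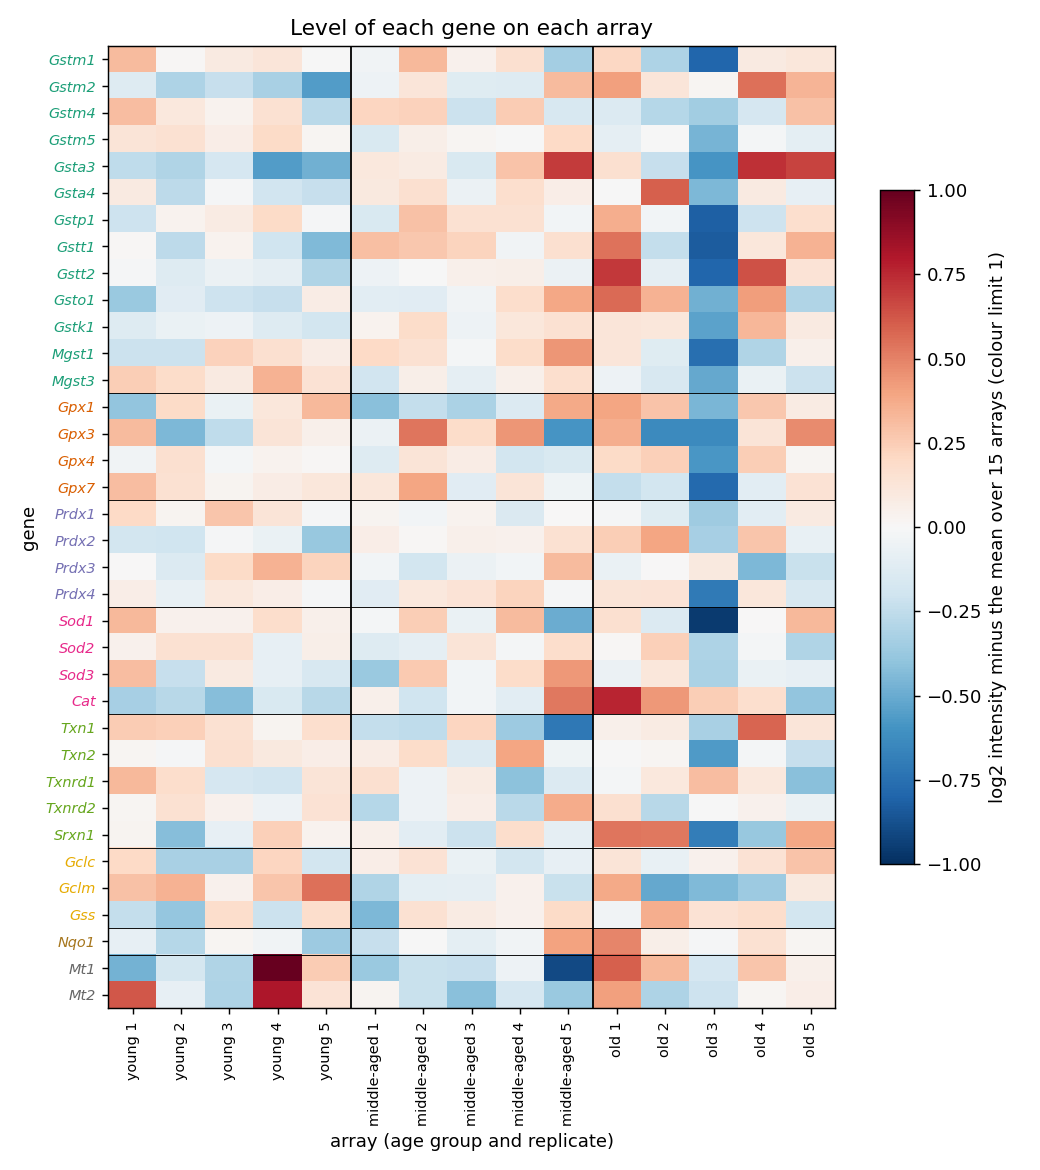
Level of each of the 36 tested genes (rows, grouped by role) on each of the 15 arrays (columns), as log2 intensity minus the gene's mean over all arrays; colours stop at 1 above and below. Old replicate 3 is a mostly blue column with the lowest value of all arrays for 21 genes, and Mt1 and Mt2 are highest on young replicate 4.

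Old against young muscle was compared first, as the full span of ages studied. Among the 36 genes, 2 were called, Gstm2 higher and Mgst3 lower in old muscle, which is 5.56% of them against 3.31% of all features (1.72% higher and 1.58% lower). At an unadjusted p under 0.05 there were 9 genes, 4 higher and 5 lower, or 25.0% against 18.9% of all features. The 5 old and 5 young arrays did not overlap for 3 genes (Gstm2 higher, Mgst3 and Gstm5 lower), or 8.33% against 4.67% of all features. The shares called or not overlapping rest on 2 and 3 genes.

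The estimated differences were small in both directions. They ran from -0.47 (Gclm) to 0.60 (Gstm2) on the log2 scale, with 15 estimates above and 21 below 0. Their median was -0.05, beside -0.02 over all features. The 95% interval of the difference lay within 1.5-fold for 24 of the 36 genes and within 2-fold for all 36. Without old replicate 3 the median turned to 0.05, with 20 estimates above and 16 below 0, and Prdx2 joined the 2 called genes, while 4.62% of all features were called.

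**Figure D2:**
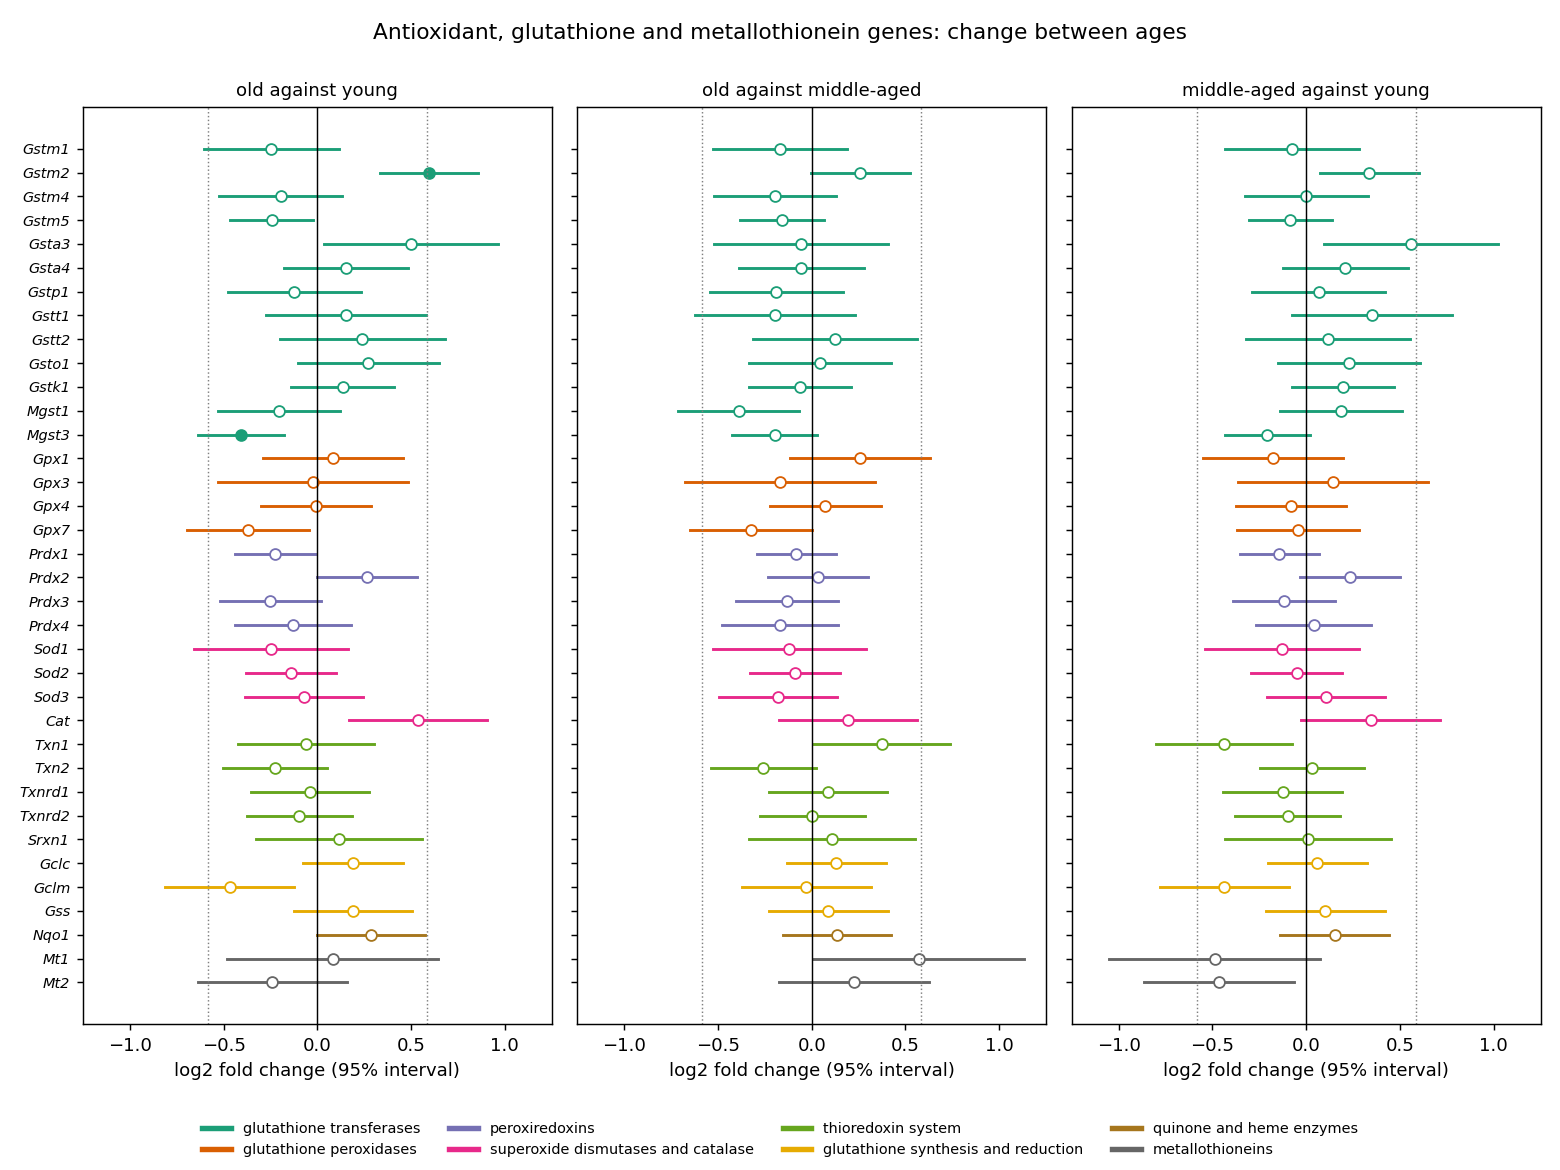
Log2 fold change with its 95% interval (horizontal axis) of each of the 36 genes (vertical axis, coloured by role) for the 3 comparisons of ages; filled points are called at an adjusted p under 0.05 by limma, and dotted lines mark 1.5-fold. Only Gstm2 (0.60) and Mgst3 (-0.41) in old against young are filled.

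The glutathione transferases held both called genes. Of the 13 measured, 1 was called higher and 1 lower in old muscle, with 7 estimates above and 6 below 0 and a median of 0.14. Gstm2, a cytosolic mu-class transferase, read 11.63, 11.45, 11.53, 11.44 and 11.20 on the young arrays, 11.71, 11.88, 11.64, 11.63 and 12.08 on the middle-aged arrays and 12.17, 11.88, 11.78, 12.31 and 12.10 on the old arrays (probe ILMN_2624854). Every old array was above every young array, and the middle-aged arrays lay between them, reaching down to the highest young value and overlapping the old ones. Gstm2 rose 1.51-fold from young to old (0.60 ± 0.13 on the log2 scale, with 5 arrays a group and an adjusted p of 0.0139 by limma).

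Both further probes of Gstm2 gave the same picture. With every probe as its own feature, the 3 probes rose by 0.60, 0.60 and 0.68 on the log2 scale, with adjusted p of 0.0147, 0.0135 and 0.0109 by limma. Probes of mu-class genes may share sequence, and cross-hybridisation between them was not tested. Gstm2 was called without any 1 of the 15 arrays, and its call was lost with median scaling of the arrays (0.52, adjusted p = 0.324).

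Mgst3, a microsomal membrane enzyme with glutathione transferase and peroxidase activity, read 12.95, 12.89, 12.79, 13.05 and 12.85 on the young arrays, 12.51, 12.76, 12.61, 12.75 and 12.87 on the middle-aged arrays and 12.65, 12.54, 12.19, 12.64 and 12.49 on the old arrays (probe ILMN_2615035). The old arrays lay wholly below the young ones, with middle-aged arrays reaching into both ranges. Mgst3 fell 1.33-fold from young to old (log2 -0.41 ± 0.11, adjusted p = 0.0459 by limma).

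The call of Mgst3 was at the edge of the threshold. A second probe (ILMN_1238479) read from 11.93 to 12.10 in young and from 11.42 to 12.05 in old muscle, so its groups overlapped, and its difference was -0.22 (adjusted p = 0.357). The call was lost without any 1 of the 5 young arrays, of middle-aged replicates 2, 3 and 4 and of old replicates 1, 2 and 4. The adjusted p then ran from 0.0549 to 0.122. It held without old replicate 3 (-0.33, adjusted p = 0.0477).

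**Figure D3:**
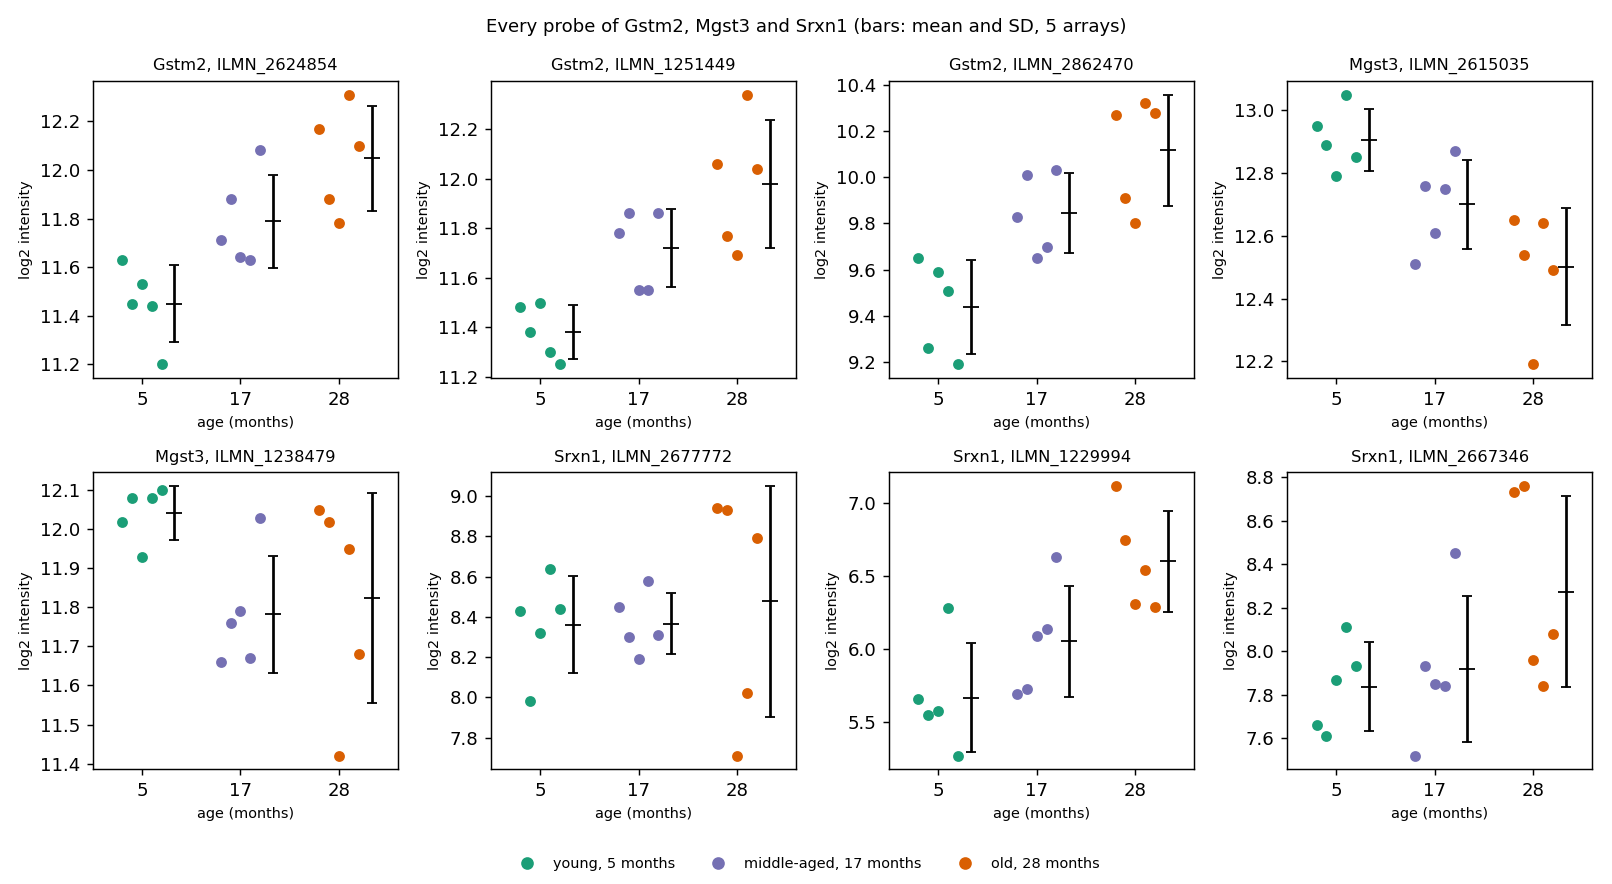
Log2 intensity (vertical axis) on each array by age in months (horizontal axis) for every probe of Gstm2, Mgst3 and Srxn1; bars are the mean and SD of 5 arrays. The 3 Gstm2 probes separate old from young arrays, while the probes of Mgst3 (-0.41 and -0.22) and of Srxn1 (0.12, 0.94 and 0.44) differ among themselves.

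The promoters of these 2 genes are shown because they carried the calls. The reference table held promoters for 33 of the 40 genes. These were searched on both strands in the 250 bases before the start for the antioxidant response element core TGACNNNGC and for the metal response element cores TGCACNC and TGCGCNC. The windows below are the last 120 bases before the RefSeq start on build GRCm38.p6, both on the minus strand, at chr3:107986421-107986540 for Gstm2 and chr1:167393842-167393961 for Mgst3. No letters are in capitals, since the windows hold 0 matches.
Gstm2: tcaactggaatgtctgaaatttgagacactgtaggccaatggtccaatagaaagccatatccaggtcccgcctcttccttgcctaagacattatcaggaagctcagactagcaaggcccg
Mgst3: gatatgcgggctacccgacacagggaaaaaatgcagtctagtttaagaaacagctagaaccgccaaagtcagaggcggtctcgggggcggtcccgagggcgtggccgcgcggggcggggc

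Gstm5, another mu-class gene, read 11.28, 11.30, 11.22, 11.34 and 11.17 in young, 11.00, 11.21, 11.17, 11.15 and 11.35 in middle-aged and 11.06, 11.15, 10.69, 11.13 and 11.05 in old muscle. All old values lay below the young ones, by a narrow margin outside old replicate 3. The difference was -0.24 ± 0.11 (adjusted p = 0.22 by limma), and -0.16 without old replicate 3. Among the mu-class genes the estimates thus had both signs, with Gstm1 at -0.24 ± 0.17 and Gstm4 at -0.20 ± 0.16 beside Gstm2. Without old replicate 3 Gstm1 was at -0.08 ± 0.13.

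Gsta3, an alpha-class transferase, read 5.47, 5.42, 5.55, 5.16 and 5.24 in young, 5.83, 5.80, 5.57, 6.01 and 6.42 in middle-aged and 5.88, 5.49, 5.13, 6.45 and 6.40 in old muscle. All middle-aged arrays were above all young ones, while the old arrays ran from the lowest to the highest value of the series. Gsta3 was detected on all arrays but was dim, with raw intensities from 92.6 to 109.7 in young muscle. A second Gsta3 probe (ILMN_3138685) was detected on 0 arrays. The differences from young were 0.56 ± 0.22 at 17 months (adjusted p = 0.851 by limma) and 0.50 ± 0.22 at 28 months (adjusted p = 0.225), the latter being 0.69 (adjusted p = 0.0568) without old replicate 3. Its 3 highest arrays, middle-aged replicate 5 and old replicates 4 and 5, were also among the 4 highest for the mean of the 8 measured fat cell markers (1.22, 0.62 and 0.35, with a median of -0.44 in young), whose part in the result was not tested. At their brightest probes, the other transferases (Gsta4, Gstp1, Gstt1, Gstt2, Gsto1, Gstk1 and Mgst1) had differences between -0.20 and 0.27 from young to old. Without old replicate 3 these lay between -0.07 and 0.47. With every probe as its own feature, the further Gstp1 probes were at -0.35 (adjusted p = 0.275 by limma) and -0.21, beside -0.12 for the brightest.

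Catalase, the peroxisomal enzyme that splits hydrogen peroxide, was the third gene by p in this comparison. Cat read 8.98, 9.04, 8.89, 9.16 and 9.04 in young, 9.37, 9.12, 9.29, 9.21 and 9.84 in middle-aged and 10.08, 9.75, 9.56, 9.48 and 8.92 in old muscle. Of the old arrays, 4 were above every young array and old replicate 5 was down among the young ones. The difference was 0.54 ± 0.18 from young to old (adjusted p = 0.103 by limma), which did not pass the threshold. Without old replicate 5 it was 0.70 with an adjusted p of 0.00971, and 7.57% of all features were then called. Old replicate 5 was also the array on which slow fibre markers averaged -1.95, and the part of this in the value of Cat was not tested.

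The 3 superoxide dismutases gave no call. Sod1, the cytosolic copper-zinc enzyme, differed by -0.25 ± 0.19 from young to old, Sod2 of the mitochondrial matrix by -0.14 ± 0.11 and the secreted Sod3 by -0.07 ± 0.15. Old replicate 3 gave the lowest Sod1 value, at 11.25, where the other old arrays ran from 12.07 to 12.53. Without it the differences were -0.04 ± 0.14 for Sod1, -0.08 ± 0.11 for Sod2 and -0.01 ± 0.15 for Sod3. Sod3 was dim, with raw intensities from 89.5 to 118.1 in young muscle, so its small difference is weakly measured.

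Of the 4 glutathione peroxidases, none was called in limma, and 1 had an unadjusted p under 0.05. Gpx7, a peroxidase of the endoplasmic reticulum, was lower by 0.37 ± 0.15 on the log2 scale in old than in young muscle (adjusted p = 0.204), with old values of 7.37, 7.42, 6.83, 7.50 and 7.75 and young values of 7.91, 7.76, 7.63, 7.68 and 7.72. Old replicate 5 was inside the young range, and without old replicate 3 the difference was -0.23. Gpx1, the main cytosolic enzyme, differed by 0.08 ± 0.18, Gpx3, the plasma enzyme, by -0.02 ± 0.24, and Gpx4, which reduces lipid peroxides in membranes, by -0.01 ± 0.14. The 95% interval for Gpx4, from -0.30 to 0.29, was the narrowest of the 4. Without old replicate 3 these differences were 0.23 ± 0.16 for Gpx1, 0.12 ± 0.24 for Gpx3 and 0.14 ± 0.09 for Gpx4.

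Peroxiredoxins reduce peroxides with electrons from thioredoxin. Prdx2, abundant in the cytosol, read 11.85, 11.84, 12.02, 11.97 and 11.66 in young, 12.10, 12.05, 12.09, 12.08 and 12.19 in middle-aged and 12.28, 12.43, 11.70, 12.31 and 11.96 in old muscle. The middle-aged arrays were tightly grouped above every young array, whereas old replicates 3 and 5 lay within the young range. The difference from young to old was 0.27 ± 0.13 (adjusted p = 0.262 by limma) and became 0.38 (adjusted p = 0.0434) without old replicate 3. Its 2 further probes differed by -0.01 and 0.06, so the larger estimate came from its brightest probe alone.

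Prdx1, the related cytosolic enzyme, was lower by 0.23 ± 0.10 on the log2 scale in old muscle (adjusted p = 0.228 by limma), and had the smallest spread within groups of the 36 genes (SD 0.125). The mitochondrial Prdx3 differed by -0.25 ± 0.13 and Prdx4 of the endoplasmic reticulum by -0.13 ± 0.15. Without old replicate 3 Prdx4 was at 0.02 ± 0.10, Prdx1 at -0.16 ± 0.09 and Prdx3 at -0.31 ± 0.13.

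In the thioredoxin system, which hands electrons from NADPH to peroxiredoxins, 0 of 5 genes were called by limma from young to old, and 0 had an unadjusted p under 0.05. Txn1 (-0.06 ± 0.17) and Txnrd1 (-0.04 ± 0.15) are the cytosolic thioredoxin and its reductase, and Txn2 (-0.23 ± 0.13) and Txnrd2 (-0.10 ± 0.13) the mitochondrial pair. Srxn1, sulfiredoxin, which restores over-oxidised peroxiredoxins, differed by 0.12 ± 0.21 at its brightest probe. Without old replicate 3 Srxn1 was at 0.31 ± 0.18, Txn1 at 0.05 ± 0.16, Txn2 at -0.13 ± 0.11 and Txnrd1 at -0.11 ± 0.15. Txnrd1 was dim, with raw intensities from 93.5 to 116 in young muscle.

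The probes of Srxn1 did not give 1 answer. A dimmer probe (ILMN_1229994), singled out after its values were seen, read 5.66, 5.55, 5.58, 6.28 and 5.27 in young, 5.69, 5.73, 6.09, 6.14 and 6.63 in middle-aged and 7.12, 6.75, 6.31, 6.54 and 6.29 in old muscle. Old arrays were above all young ones, with the closest pair almost level. In the fit of single probes the difference was 0.94 ± 0.21 (adjusted p = 0.0226 by limma), while the third probe gave 0.44 ± 0.20 (adjusted p = 0.258). The call of the dimmer probe was lost without young replicate 1, 2, 3 or 5 or old replicate 1, with adjusted p from 0.0509 to 0.0758. Besides the brightest probe, 9 of the 36 genes had other detected probes, 14 in all, of which 12 pointed the same way as the brightest one.

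Glutathione itself is made by glutamate-cysteine ligase, whose catalytic subunit is Gclc and whose modifier subunit is Gclm, and then by glutathione synthetase, Gss. Gclm read 8.21, 8.27, 7.96, 8.20 and 8.47 in young, 7.62, 7.82, 7.83, 7.96 and 7.70 in middle-aged and 8.30, 7.41, 7.48, 7.56 and 8.02 in old muscle. Middle-aged arrays did not exceed the lowest young one, and old replicates 1 and 5 were back within the young range. The difference from young was -0.44 ± 0.16 at 17 months (adjusted p = 0.814 by limma) and -0.47 ± 0.16 at 28 months (adjusted p = 0.128). Without old replicate 1 the latter was -0.61 (adjusted p = 0.0444). Gclc differed by 0.19 ± 0.13 and Gss by 0.19 ± 0.15 from young to old, both with most values close to background.

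The promoter of Gclm is shown because this gene had the lowest estimate and its window holds several matches. It spans the last 170 bases before the start (chr3:122245387-122245556, plus strand, GRCm38.p6, RefSeq). Capitals mark 3 matches on the reverse strand, an antioxidant response element core that overlaps a metal response element core TGCGCNC, and a second TGCGCNC.
Gclm: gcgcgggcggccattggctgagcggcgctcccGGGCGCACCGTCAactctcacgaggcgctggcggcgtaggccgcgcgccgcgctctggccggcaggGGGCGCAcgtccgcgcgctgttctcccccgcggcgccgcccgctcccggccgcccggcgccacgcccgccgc

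The antioxidant core was found in 8 of the 33 genes (Gsta3, Gstm5, Gclm, Prdx1, Mgst1, Mt2, Txnrd1 and Sod1) and in 10.2% of all 32851 promoters of this length. The metal cores TGCACNC and TGCGCNC were found in 4 and 10 of the 33 genes and in 10.4% and 12.5% of all promoters. A gene was counted if any of its promoters held a match, and the 33 genes had 41 promoters. The shares over all are per single promoter, so counts and shares are not like for like, and enrichment was not tested. Among the 8 genes with the antioxidant core, 1 estimate from young to old was above 0 (Gsta3 at 0.50) and 7 were below, from -0.04 (Txnrd1) to -0.47 (Gclm), with none of them called. Nqo1, a quinone reductase long used as a readout of NRF2, differed by 0.29 ± 0.14 (adjusted p = 0.267 by limma).

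**Figure D4:**
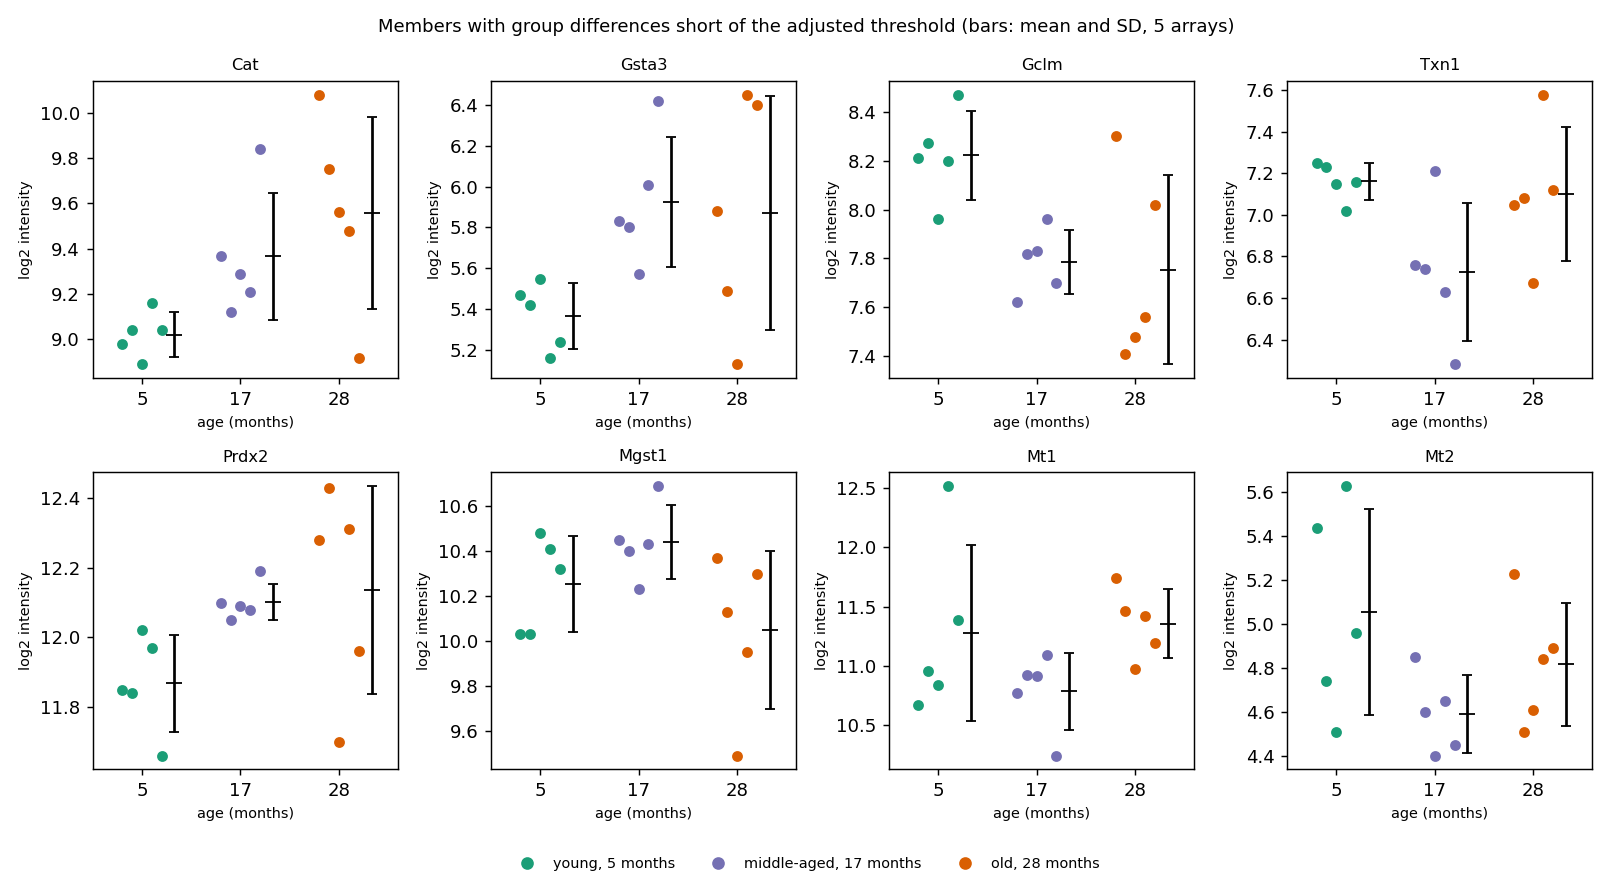
Log2 intensity (vertical axis) on each array by age in months (horizontal axis) for 8 genes with no call in any comparison; bars are the mean and SD of 5 arrays. Cat is near young levels on old replicate 5 (8.92), Txn1 is below every young array on 4 of 5 middle-aged arrays, and Mt1 and Mt2 are highest on young replicate 4.

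Metallothioneins were read by 1 probe for each of 2 genes. Mt1 read 10.67, 10.96, 10.84, 12.52 and 11.39 in young, 10.77, 10.92, 10.91, 11.09 and 10.24 in middle-aged and 11.74, 11.46, 10.97, 11.42 and 11.19 in old muscle. Young replicate 4 stood alone at the top, and the middle-aged arrays were mostly below the old ones. Mt1 had the largest spread within groups of the 36 genes (SD 0.499), above that of 95.9% of all features. It differed by 0.08 ± 0.27 from young to old (adjusted p = 0.905 by limma, and 0.18 without old replicate 3), by -0.49 ± 0.27 from young to middle-aged and by 0.57 ± 0.27 from middle-aged to old (adjusted p = 0.402). Without young replicate 4 the first of these became 0.39 and the second -0.18, so the level of Mt1 in young muscle rested largely on that array. The raw values of young replicate 4 and middle-aged replicate 2 were given to 2 decimals (lowest 52.85 and 50.35), those of the other arrays to 1. Middle-aged replicate 2 read 10.92 for Mt1, inside the range of the other middle-aged arrays (10.24 to 11.09). Animal and handling of the array cannot be told apart.

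Mt2 read 5.44, 4.74, 4.51, 5.63 and 4.96 in young, 4.85, 4.60, 4.40, 4.65 and 4.45 in middle-aged and 5.23, 4.51, 4.61, 4.84 and 4.89 in old muscle. Since 0 middle-aged arrays detected it, the lowest value of a detected probe on each of those arrays was taken as a floor. The young mean was then at least 1.14-fold above the middle-aged mean, a bound that takes no account of the spread between animals. The measured difference from young to middle-aged was -0.47 ± 0.19 (adjusted p = 0.879 by limma), and -0.32 without young replicate 4. The bound also rested on that array, since without it the bound was 1.03-fold, and 2 of the 5 young arrays lay under the floor. No fold is given against old muscle, whose mean lay under that floor.

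The 2 genes were high together on some arrays. Over the 15 arrays Pearson's r between Mt1 and Mt2 was 0.60 (permutation p = 0.0194) and Spearman's rho 0.44 (permutation p = 0.103), and no other pair of genes was tested for correlation. After subtracting the group means r was 0.54 (permutation p = 0.0367). Without the 2 arrays farthest from the median of Mt1 (young replicate 4 and old replicate 1) r was 0.07 (permutation p = 0.817), so the relation rests on those arrays.

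The promoters of Mt1 and Mt2 are shown because the metal response element is named for such genes. The window of Mt1 is the last 120 bases (chr8:94178969-94179088) and that of Mt2 the last 230 bases (chr8:94172388-94172617) before the start, both on the plus strand of GRCm38.p6 from RefSeq. Capitals mark 1 match in Mt1, a TGCACNC, and 4 in Mt2, of which 2 are TGCACNC (the latter on the reverse strand), 1 is TGCGCNC and 1 is the antioxidant core.
Mt1: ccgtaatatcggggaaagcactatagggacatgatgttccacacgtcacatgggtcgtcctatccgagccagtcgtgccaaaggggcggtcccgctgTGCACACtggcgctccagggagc
Mt2: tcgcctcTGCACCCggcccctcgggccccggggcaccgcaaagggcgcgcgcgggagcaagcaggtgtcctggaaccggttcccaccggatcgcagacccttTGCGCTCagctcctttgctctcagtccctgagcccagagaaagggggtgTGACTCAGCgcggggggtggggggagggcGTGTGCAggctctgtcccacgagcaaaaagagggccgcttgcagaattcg

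Middle-aged against young muscle gave the earlier step. Of the 36 genes, 0 were called by limma, against 0.0106% of all features, and 0 by the methods' t-test after Benjamini-Hochberg. At an unadjusted p under 0.05 there were 5 genes (Gstm2 and Gsta3 higher, Gclm, Txn1 and Mt2 lower), or 13.9% against 5.07% of all features. The groups did not overlap for 4 genes (Gstm2, Gsta3 and Prdx2 higher, Gclm lower), or 11.1% against 2.46% of all features. Gstm2 was 1.26-fold higher at 17 than at 5 months (0.34 ± 0.13, adjusted p = 0.792 by limma). The 95% interval lay within 1.5-fold for 26 of the 36 genes.

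Txn1 was the other gene low at 17 months. It read 7.25, 7.23, 7.15, 7.02 and 7.16 in young, 6.76, 6.74, 7.21, 6.63 and 6.28 in middle-aged and 7.05, 7.08, 6.67, 7.58 and 7.12 in old muscle. All middle-aged arrays except replicate 3 were below every young array. The differences were -0.44 ± 0.17 from young to middle-aged (adjusted p = 0.851 by limma) and 0.38 ± 0.17 from middle-aged to old (adjusted p = 0.395).

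Old against middle-aged muscle gave the later step. Of the 36 genes, 0 were called by limma, against 0.317% of all features, and 0 by the methods' t-test after Benjamini-Hochberg. At an unadjusted p under 0.05 there were 4 genes (Txn1 and Mt1 higher, Mgst1 and Gpx7 lower), or 11.1% against 12.2% of all features, and groups did not overlap for 0 genes, against 1.5% of all features. Mgst1, the microsomal transferase of the outer mitochondrial membrane and endoplasmic reticulum, had the lowest p, with 10.03, 10.03, 10.48, 10.41 and 10.32 in young, 10.45, 10.40, 10.23, 10.43 and 10.69 in middle-aged and 10.37, 10.13, 9.49, 9.95 and 10.30 in old muscle. Old replicate 3 was far below the rest, and the difference of -0.39 ± 0.15 (adjusted p = 0.318 by limma) was -0.25 without it. In the fit of single probes, the second Mgst1 probe differed by -0.30 ± 0.17 (unadjusted p = 0.0949 by limma).

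The later step was also set against the earlier one in the same fit. Of the 36 genes, 0 were called by limma, against 0.0211% of all features, and 4 had an unadjusted p under 0.05 (Txn1, Mt1 and Mt2 higher, Mgst1 lower), or 11.1% against 4.56% of all features. The difference between steps was 0.81 ± 0.30 for Txn1, 1.06 ± 0.46 for Mt1, 0.69 ± 0.33 for Mt2 and -0.58 ± 0.27 for Mgst1, each with an adjusted p of 0.973. Without young replicate 4 it was 0.75 for Mt1 and 0.54 for Mt2, and Mt2 was detected on 0 middle-aged arrays. The second Mgst1 probe was at -0.52 ± 0.29 in the fit of single probes. Both steps share the middle-aged arrays, so a low middle-aged mean moves both. At their brightest probes, Gstm2 (-0.08 ± 0.22) and Mgst3 (0.01 ± 0.19) had differences between steps smaller than their standard errors. In the fit of single probes, the second Mgst3 probe was at 0.30 ± 0.21. It differed by -0.26 from young to middle-aged and by 0.04 from middle-aged to old.

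Genes that feed or control the same system were followed in 7 further lists with 79 measured members, of which 5 (6.33%) were called from young to old, beside 3.31% of all features, and 21 had an unadjusted p under 0.05, a level reached by 18.9% of all features. Among the 8 measured NRF2 regulators, 0 were called by limma and 1 had an unadjusted p under 0.05. NRF2 itself, Nfe2l2, differed by 0.18 ± 0.24 and its inhibitor Keap1 by -0.11 ± 0.15, while the related factor Nfe2l1 differed by 0.33 ± 0.11 (adjusted p = 0.108). Of 9 genes of NADPH supply 0 were called by limma, and 1, the cytosolic isocitrate dehydrogenase Idh1 at 0.49 ± 0.18 (adjusted p = 0.153), had an unadjusted p under 0.05. Of 15 other thioredoxin and repair genes 0 were called by limma and 5 had an unadjusted p under 0.05, with Msrb2, a methionine sulfoxide reductase, nearest at -0.49 ± 0.13 (adjusted p = 0.0509).

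The 5 calls were in the other 4 lists. Gstt3, a theta-class transferase and the only call among 17 other glutathione genes, ran from 6.33 to 6.64 in young and from 6.62 to 7.43 in old muscle, and rose 1.48-fold (0.57 ± 0.15, adjusted p = 0.0455 by limma). Aldh1a1, which oxidises retinal and lipid aldehydes, was the only call among 11 genes of aldehyde removal. It ran from 8.81 to 9.57 in young, from 9.70 to 10.22 in middle-aged and from 9.79 to 10.67 in old muscle, and rose 1.94-fold from young to old (0.95 ± 0.18, adjusted p = 0.00713). All middle-aged and all old arrays were above all young arrays.

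Slc30a1, the zinc exporter of the cell surface and like Mt1 a known target of MTF1, was the only call among 12 genes of metal handling. It ran from 5.05 to 5.52 in young, from 5.29 to 5.78 in middle-aged and from 5.47 to 6.81 in old muscle. The lowest old array was thus within the young range. Slc30a1 rose 2.05-fold (1.04 ± 0.20, adjusted p = 0.00827 by limma). It was dim in young muscle, with a mean of 5.27, near that of the dim Sod3 (5.36). Mtf1 differed by 0.31 ± 0.19 (adjusted p = 0.398). Slc30a1 and Mt1 thus differed in outcome from young to old, at 1.04 ± 0.20 and 0.08 ± 0.27, and the difference between the genes was not tested.

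Of 7 oxidant sources, Xdh, xanthine dehydrogenase, which can form superoxide, rose 1.48-fold (0.56 ± 0.15, adjusted p = 0.0455 by limma), from 7.21 to 7.39 in young to between 7.59 and 8.43 in old muscle. Smox, spermine oxidase, which releases hydrogen peroxide, fell 3.54-fold (-1.83 ± 0.24, adjusted p = 0.00033), from between 12.82 and 13.33 in young to between 10.55 and 12.11 in old muscle. The calls of Aldh1a1, Slc30a1 and Smox held without any 1 array. That of Gstt3 was lost without any 1 of the young arrays, of middle-aged replicates 1 to 4 and of old replicates 1, 2 and 4 (adjusted p from 0.0537 to 0.119), and that of Xdh without the same arrays other than old replicate 2 (0.0554 to 0.105). With median scaling Aldh1a1 was at 0.89 with an adjusted p of 0.0825.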

How the data were processed

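Total RNA of 15 muscles was hybridised by the authors, 1 array per mouse. The authors deposited raw intensity values from GenomeStudio 2011.1 with a detection p-value per probe and array, and a Z score per probe (log intensity, centred and scaled within each array). Background correction and quantile normalisation used neqc (limma 3.58.1, R 4.3.3; background estimated from detection p-values, offset 16). Probes detected on 5 or more arrays (detection p below 0.05) were kept (12552), and the brightest probe stood for a gene (9470 features). Linear models (lmFit, then eBayes with trend) were tested with both sides counted and adjusted by Benjamini-Hochberg over all features, and adjusted p-values in the text are from limma. The fit was tested on simulated data with values drawn independently for each array, which had no array like old replicate 3. The labels number 5 samples per age, and p-values measure the spread between these samples. Every member was accounted for, with values in each array where a member was called, its groups did not overlap or its p was among the 3 lowest of a comparison. In the further lists, called genes or the 1 with the lowest p were named, and Nfe2l2, Keap1 and Mtf1 for their roles. Members and lists were chosen with earlier results of these data known. Other settings tried were background correction, scaling, detection filters, probe choice, array weights, a replicate block, left-out arrays (old replicate 3 for every member, and some for Srxn1, Mt1, Mt2 and the further lists, chosen after seeing the data) and the methods' t-test on Z scores. The number of arrays limits the precision.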

Additional observations from a re-analysis of the deposited data

Results flagged for a closer look

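Among the 108 sets of 5 arrays (36 genes in 3 age groups), 4 held an array whose gap to its nearest neighbour was over 0.71 of the whole range. Chance gives about 1 in 20, so the 4 flagged sets were not more than chance would give. In 3 of them the array was old replicate 3, which was low for these genes as a whole. Gstm5 read 10.69 there against 11.05 to 11.15 on the other old arrays, Gstk1, the peroxisomal and mitochondrial transferase, read 10.47 against 11.10 to 11.34, and Gpx4 read 10.36 against 10.96 to 11.19. Gss read 4.69 on middle-aged replicate 1 against 5.18 to 5.33 on the other middle-aged arrays.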

How the results depend on the processing

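Between young and old muscle 2 genes were called. The count was 0 with median scaling and with the methods' t-test after Benjamini-Hochberg, 1 with Z scores, deposited scores, no detection filter, the mean of probes, no intensity trend, only the groups compared, or without young replicate 4 and middle-aged replicate 2, 4 without old replicate 3 and middle-aged replicate 5, and 7 with array weights. Leaving out 1 array gave 1 to 3 (3 without old replicate 3, which added Prdx2, or without old replicate 5, which added Cat). The cause of these shifts was not tested. The methods' own threshold takes an unadjusted p under 0.05 by t-test, a Z ratio over 1.5 either way and a mean Z score over 0. At it, 3 of the 36 genes passed between young and old, beside 516 of all 9470 features. For the later step 2 genes passed (Mgst1 and Mt1), beside 274 features, and for the earlier step 6, beside 341. After adjustment 0 genes passed in any of these comparisons by the t-test. For both steps the count was 0 in all other settings. The 5 calls in further lists became 2 with median scaling and 3 to 13 with 1 array left out (13 without old replicate 5, 8 without old replicate 3). Over all features, median scaling gave 136 calls (86 higher, 50 lower) in place of 313 (163 and 150), the methods' t-test after Benjamini-Hochberg 24 and array weights 870, and leaving out 1 array gave from 152 (young replicate 5) to 710 (old replicate 5). Replicate numbers did not pair the arrays, since 3 of 15 same-numbered pairs deviated together with a correlation over 0.1 (range -0.50 to 0.40). With the replicate block 1 gene was called (Gstm2), and Mgst3 had an adjusted p of 0.0717. The 19 single-gene values followed were picked for an unadjusted p under 0.05 by limma or for groups that did not overlap in these data. Of these, only Gstm2 and Mgst3 from young to old were called in the main fit. Under 605 alternatives, 573 kept direction and side of the threshold, 24 lost a call, 8 gained 1 and 0 reversed. Values picked this way were unlikely to reverse, so the count does not measure stability. Without old replicate 3, other estimates from young to old changed sign (Gpx3 -0.02 to 0.12, Gpx4 -0.01 to 0.14, Gstp1 -0.12 to 0.055, Prdx4 -0.13 to 0.02, Txn1 -0.06 to 0.05). For genes close to background (Gclc, Gss and Mt2, and the dim Gsta3, Sod3, Txnrd1 and Slc30a1) signal limits the precision.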
